A study of Arabidopsis thaliana with 12 samples.

Results

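The comparison described here sets seedlings of the Arabidopsis thaliana mutant sid2 against seedlings of the wild type Col-0 when both received urea, with the treatment held the same. Its members were the 6 libraries whose titles name urea and either Col-0 or sid2, 3 of each, out of 12 libraries in the series, and all 14897 genes of the deposited table were described in them. The seedlings were 14 days old, had been raised in liquid culture in continuous light, and were exposed to 20 mM urea for 48 h. The other 6 libraries came from the same genotypes given 20 mM L-glutamate (L-Glu) for 48 h. They are used below to read the same genes in samples that entered neither urea mean. They were also fitted in the same model, so their spread enters the urea p-values. There was no untreated group, so the urea libraries are a treated state and not a resting one. The labels name no sid2 allele, and their genotype field gives Col-0 for all 12 samples, so the titles were followed. Genotype cannot be told apart from any difference in seed stock or handling between the 2 lines. Nothing in the labels ties the 3 libraries of a genotype to separate cultures; the p-values then cover only the spread between these samples, which may be technical. Whole seedlings were sampled, and fewer cells of a type and less RNA per cell cannot be told apart in them.

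SID2, also named ICS1, encodes the plastid enzyme isochorismate synthase, which makes the precursor of most of the salicylic acid (SA) that Arabidopsis leaves accumulate. The transporter EDS5 exports isochorismate from the plastid and the amido synthetase PBS3 couples it to glutamate, a step that leads to SA. The transcription factors SARD1 and CBP60G activate SID2, the NPR proteins perceive SA, and many WRKY transcription factors act downstream of them. SA is removed by enzymes that hydroxylate it, such as DMR6, or attach glucose to it, such as UGT74F2. The hormone is best known for defence against biotrophic pathogens and also acts in leaf senescence.

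The values are deposited signals, a normalized read abundance per gene. They summed to 2668840 ± 98784 (SD, n = 3) in Col-0 and 2894250 ± 140844 in sid2. The number of reads behind them is unknown, so no counting interval is given. Across genes, the log2 values of 2 libraries of one group correlated at 0.926 to 0.968 in Col-0 and at 0.963 to 0.970 in sid2, and libraries of different groups correlated at 0.923 to 0.970. Col-0 urea library 1 stood apart: both of its correlations within its own group, 0.926 and 0.929, were below the third, 0.968. The calls that were lost without it are named below. Of 6 measured root markers 0 were called between the genotypes, with summed signals of 2802 to 4393 in Col-0 and 2984 to 3732 in sid2. Of 5 measured epidermis and guard cell markers 0 were called, with sums of 1118 to 1317 and 1186 to 1372, and of 4 measured markers of dividing cells 0 were called, with sums of 126 to 178 and 108 to 147. The ranges of the 2 genotypes overlapped for all 3 marker lists. Over all genes 0.248% were called, so 0 calls in lists this short says little about cell types. Root markers and 24 of 25 nuclear photosynthesis genes were both measured, as whole seedlings would give. None of the 5 seed storage markers was measured.

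Under urea few genes were called between sid2 and Col-0, and in the main fit most of the called genes were lower in the mutant. A gene was called when its p-value, from limma with Benjamini-Hochberg adjustment over all 14897 genes, was below 0.05. By this rule 37 genes (0.248%) were called, 27 of them lower in sid2 (0.181%) and 10 higher (0.0671%), and 943 genes had an unadjusted p below 0.05. The lower genes were led by the transcription factor genes WRKY54 and WRKY70 and included SARD1, SAG13, DMR6 and UGT74F2. Of the higher genes, 7 lay in 2 short stretches of chromosomes 3 and 5. In all 37 called genes the 3 libraries of one genotype lay on one side of the 3 of the other, as they did in 1683 of all 14897 genes (11.3%). The ratio of the group means ran from 1.96-fold to 7.22-fold for the lower genes and from 2.02-fold to 2.62-fold for the higher ones. Over all genes the median log2 fold change was 0.01, and 52.2% of genes had a value above 0.

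**Figure D1:**
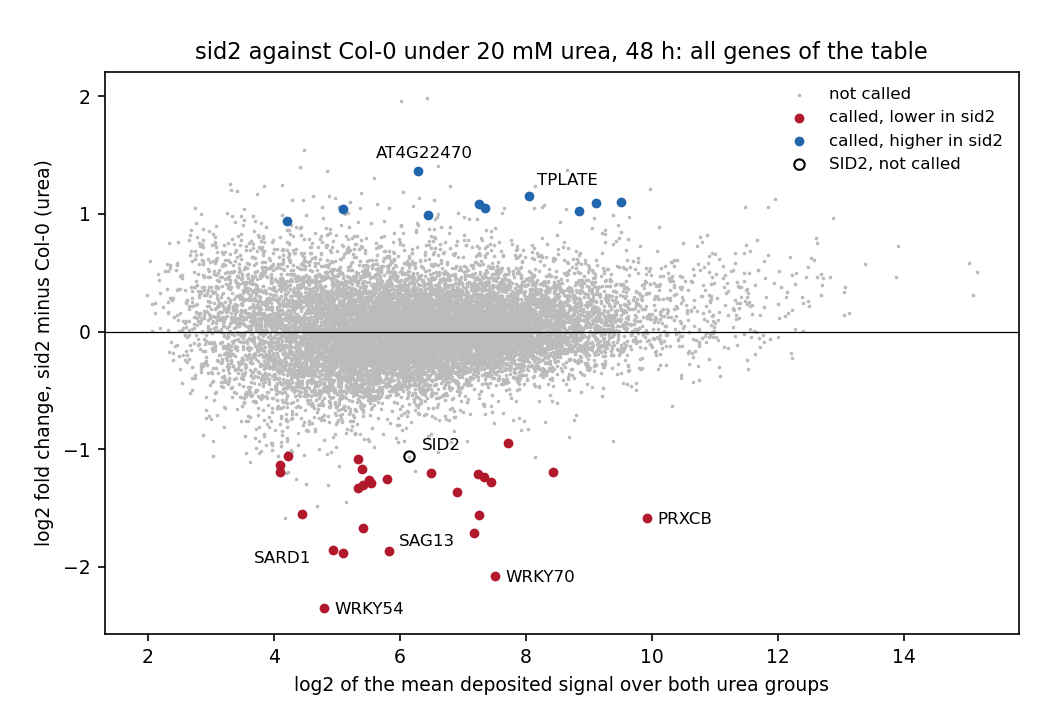
Each point is 1 of the 14897 genes, with the log2 of its mean deposited signal over both urea groups on the horizontal axis and the log2 fold change, sid2 minus Col-0, on the vertical axis. Red points are the 27 genes called lower and blue points the 10 called higher, and the open circle is SID2, which was not called. WRKY54 and WRKY70 lie lowest, and every called gene lies at least 0.94 log2 units from 0.

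The set of 37 depends on single libraries. Without Col-0 urea library 1 the count was 27, and 21 of the 37 genes were still called, 17 lower and 4 higher. The 16 calls lost were those of ACD6, AT1G35710, AT4G01870, AT4G22470, BGLU11, ChiC, CHX17, GLR2.5, GLYI7, LECRKA4.2, RK3, TIP2;3, WAKL4, 2-Cys Prx B, AT3G01800 and AT3G01860. Counts of calls without one of the urea libraries ran from 13, without sid2 library 1, to 37, without Col-0 library 3. Of the original 37, 11, 14 and 17 were kept without sid2 library 1, 2 and 3. Without Col-0 library 2 and 3, 17 and 20 were kept, so the 37 of the last omission are another set. The calls were 10 higher and 10 lower without Col-0 library 2, and 19 higher and 18 lower without Col-0 library 3. The majority of lower genes among the calls thus depends on single libraries. Without one of the L-Glu libraries the count ran from 22 to 33. In all 12 omissions 8 of the 37 genes were called. These 8 were WRKY54, WRKY70, SARD1, SAG13, GLP9, CYP81D8, DMR6 and SOX. With 10 rather than 1 scaled units added before log2, SARD1, GLP9 and CYP81D8 were not called. When the fit held only the 6 urea libraries 5 genes were called, WRKY54, WRKY70, PRXCB, CCD8 and TPLATE, so 6 of these 8 were not called there. With the replicate number as a block 49 genes were called, 16 higher and 33 lower, and 36 of the 37 were among them; ACD6 was the exception.

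SID2 itself lay lower in the mutant but did not pass the threshold. The gene (AT1G74710, chr1:28070295-28074177, plus strand, TAIR10.1) had signals of 98.3, 100.1 and 89.6 in the Col-0 libraries, against 43.3, 29.8 and 65.4 in the sid2 libraries. The genotypes did not overlap, and sid2 library 3 was nearest to Col-0. The means were 96.0 ± 5.597 and 46.2 ± 17.9 (SD, n = 3), a log2 fold change of -1.06 (SE 0.235, limma adjusted p = 0.0745). The limma adjusted p was 0.0275 with the replicate block, 0.0228 when all libraries were given the same total and 0.0394 after quantile normalization. It was 0.359 with only the 6 urea libraries and 0.134 without Col-0 urea library 1. SID2 was called in 1 of the 12 omissions of a library, so the call depends on the fit. Reads at SID2 in the mutant do not by themselves check the genotype labels, since the labels do not say what the allele does to the transcript. Of the 5 measured genes on each side of SID2, 0 were called, against 0.248% of all genes. Their log2 fold changes ran from -0.46 to 0.98.

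Around this enzyme, the clearest difference was in its activator. SARD1 had signals of 50.0, 59.4 and 39.1 in Col-0, against 8.43, 7.17 and 20.06 in sid2, so every sid2 library was below every Col-0 library. Its mean was 4.16-fold lower in sid2 (log2 fold change -1.86, SE 0.261, limma adjusted p = 0.00382). CBP60G, the related activator, had 89.8 ± 26.8 in Col-0 and 74.2 ± 22.7 in sid2 (SD, n = 3), with overlapping libraries and an adjusted p of 0.917 from limma. PBS3 had 67.2 ± 9.61 and 45.4 ± 12.4 (log2 fold change -0.56, limma adjusted p = 0.583), and EDS5 had 36.6 ± 9.48 and 23.3 ± 4.71 (log2 fold change -0.56, limma adjusted p = 0.520). Of the 7 genes listed for the isochorismate route, 5 were measured and 1 was called, lower, against 0.181% of all genes called lower. The median log2 fold change of the 5 was -0.56, against 0.01 over all genes, and all 5 values were below 0. ICS2 and EPS1 were not analysed here.

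WRKY54 and WRKY70, closely related group III WRKY factors that act downstream of SA, showed the largest differences among the called genes. WRKY54 had signals of 52.4, 51.3 and 42.8 in Col-0, against 5.68, 6.49 and 8.13 in sid2. The mutant values lie near the lowest signals of these libraries, which were 1.36 to 4.30 in sid2 with urea, so little of the transcript was measured there. The log2 fold change was -2.35 (SE 0.243, limma adjusted p = 0.000168), and the means stood 7.22-fold apart. WRKY70 had 377, 333 and 186 in Col-0, against 60.9, 74.4 and 60.7 in sid2, a 4.57-fold lower mean (log2 fold change -2.08, SE 0.263, limma adjusted p = 0.00180). Even the lowest Col-0 value of WRKY70, in library 3, was above the highest mutant value.

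WRKY51, a group IIc factor through which SA signalling restrains jasmonate responses, had 35.6, 88.2 and 77.0 in Col-0, against 21.9, 10.7 and 21.2 in sid2. Its Col-0 library 1 was the lowest of the 3, and the log2 fold change was -1.67 (SE 0.292, limma adjusted p = 0.0187) with it and -2.05 without it. WRKY18, WRKY53 and WRKY46 were not called. WRKY18 had 143 ± 24.8 in Col-0 and 88.9 ± 24.1 in sid2 (SD, n = 3), WRKY53 had 19.7 ± 7.81 and 11.6 ± 1.92, and WRKY46 had 14.6 ± 5.18 and 8.92 ± 3.75. The libraries of WRKY18 did not overlap between genotypes, whereas those of WRKY53 and WRKY46 did.

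Of the genes for enzymes that remove SA, DMR6 and UGT74F2 were lower in sid2. DMR6, the SA 5-hydroxylase, had 298, 226 and 169 in Col-0, against 105, 85.6 and 90.4 in sid2 (log2 fold change -1.24, SE 0.191, limma adjusted p = 0.00672). UGT74F2, which glucosylates SA, had 242, 312 and 194 in Col-0, against 85.6, 111 and 101 in sid2 (log2 fold change -1.28, SE 0.205, limma adjusted p = 0.00791). In both genes the mutant libraries lay within a narrower range than the wild-type ones and below all of them. ACD6, an ankyrin-repeat membrane protein that promotes SA-dependent defence, had 243, 221 and 216 in Col-0, against 48.0, 74.0 and 114 in sid2 (log2 fold change -1.56, SE 0.318, limma adjusted p = 0.0448). Its call was lost in 9 of the 12 omissions of a library and with the replicate block (limma adjusted p = 0.0552).

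The SA receptors were not called. NPR1 had 176, 127 and 138 in Col-0, against 123, 127 and 129 in sid2, and the genotypes overlapped (log2 fold change -0.20, limma adjusted p = 0.899). NPR3 had 150.4, 98.8 and 95.9 in Col-0, against 58.2, 59.3 and 60.7 in sid2, without overlap (log2 fold change -0.88, SE 0.210, limma adjusted p = 0.111). NPR4 had 94.8, 81.2 and 86.4 in Col-0, against 56.2, 31.1 and 62.6 in sid2, again without overlap (log2 fold change -0.82, SE 0.235, limma adjusted p = 0.291). The transcription factor TGA3, which binds NPR1, had 137 ± 21.7 and 156 ± 18.3 (SD, n = 3). Of 27 genes listed for SA perception, response and turnover 14 were measured, and 6 of these were called, all lower, against 0.181% of all genes called lower; the median log2 fold change of the 14 was -0.85. Without Col-0 urea library 2 only WRKY54, WRKY70 and DMR6 of the 6 were still called. PR1, PR2 and PR5, the usual marker genes of SA responses, were not analysed here.

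**Figure D2:**
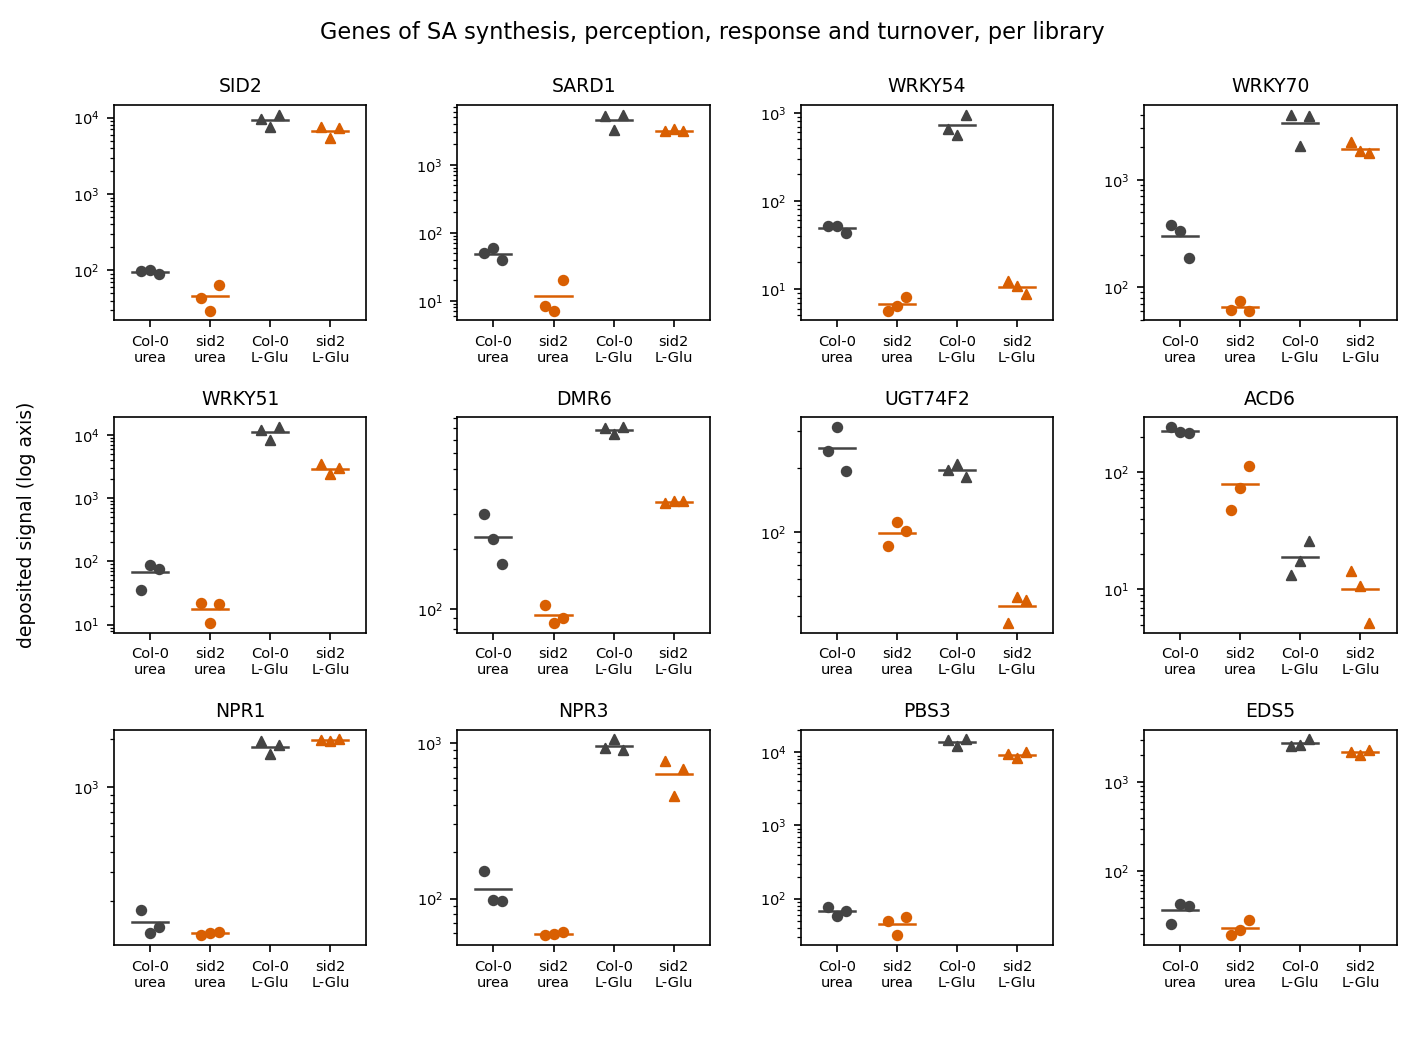
Each panel shows 1 gene, with the deposited signal of every library on a log axis that differs between panels. Circles are urea libraries and triangles L-Glu libraries, grey for Col-0 and orange for sid2, and the horizontal lines are group means (n = 3). Under urea the sid2 libraries lie below all Col-0 libraries for SID2, SARD1, WRKY54, WRKY70, WRKY51, DMR6, UGT74F2, ACD6, NPR3 and PBS3, but not for NPR1 or EDS5.

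The upstream sequences of 4 of these regulators are shown. WRKY54, WRKY70 and WRKY51 belong to a family whose binding letters are known. TGA factors were not among the called genes, and letters bound by the SARD1 protein were not searched. Each is the 250 bases before the annotated start of the gene (RefSeq, TAIR10.1), read 5′ to 3′ on the strand of the gene. Capitals mark TTGAC, the core of the W-box that WRKY proteins bind, and TGACG, the core bound by TGA factors, on either strand (GTCAA and CGTCA). The 2 motifs overlap wherever the letters TTGACG or CGTCAA occur.
WRKY54, chr2:17002529-17002778, minus strand: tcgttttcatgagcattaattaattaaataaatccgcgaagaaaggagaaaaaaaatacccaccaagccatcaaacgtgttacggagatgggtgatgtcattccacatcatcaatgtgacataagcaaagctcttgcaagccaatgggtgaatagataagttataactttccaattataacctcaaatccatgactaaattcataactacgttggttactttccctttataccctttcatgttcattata
WRKY70, chr3:20910624-20910873, minus strand: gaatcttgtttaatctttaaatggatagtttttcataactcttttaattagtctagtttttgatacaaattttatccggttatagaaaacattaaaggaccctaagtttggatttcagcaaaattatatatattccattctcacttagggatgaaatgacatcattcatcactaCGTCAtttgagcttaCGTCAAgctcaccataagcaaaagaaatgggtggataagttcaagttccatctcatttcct
SARD1, chr1:27749249-27749498, minus strand: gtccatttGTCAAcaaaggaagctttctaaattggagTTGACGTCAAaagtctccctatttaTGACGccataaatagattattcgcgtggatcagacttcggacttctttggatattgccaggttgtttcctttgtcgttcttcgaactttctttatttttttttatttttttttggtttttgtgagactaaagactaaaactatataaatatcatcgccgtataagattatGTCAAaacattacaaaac
WRKY51, chr5:25907997-25908246, plus strand: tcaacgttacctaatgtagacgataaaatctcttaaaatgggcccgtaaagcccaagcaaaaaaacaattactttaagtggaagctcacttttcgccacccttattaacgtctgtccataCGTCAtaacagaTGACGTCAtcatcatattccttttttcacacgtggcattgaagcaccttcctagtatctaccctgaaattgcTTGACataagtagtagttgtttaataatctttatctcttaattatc
SARD1 held 4 matches of TTGAC and 3 of TGACG, WRKY70 held 1 and 2, and WRKY51 held 1 and 3. WRKY54, the gene with the largest fold among the called genes, held 0 of either in this window, which says only that these letters are not in it. Over the 27 lower genes, 19 windows (70.4%) held TTGAC and 9 (33.3%) held TGACG. Among the 10 higher genes the counts were 5 and 4, and over the windows of 14818 genes of the table the shares were 45.7% and 19.8%. These shares describe letters, no test was made of them, and a match is not a binding site.

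Outside the SA lists, the senescence list held 1 call among 10 measured genes, against 0.248% of all genes called. SAG13, a short-chain dehydrogenase gene used as an early senescence marker, had 102, 96.5 and 71.4 in Col-0, against 12.2, 26.3 and 31.6 in sid2 (log2 fold change -1.86, SE 0.290, limma adjusted p = 0.00672). The other 9 measured genes of senescence and chlorophyll breakdown were not called, and the median of all 10 was -0.28. ORE1, a NAC factor that drives leaf ageing, had a log2 fold change of -0.43, NYE1, which starts chlorophyll breakdown, -0.50, and SEN1 0.02. The 9 genes without a call had log2 fold changes from -0.50 to 0.02.

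The other 19 lower genes were in none of the lists. Those described next were chosen after their values were seen, and no theme was tested among them. PRXCB, a secreted peroxidase known to supply reactive oxygen in immunity, had 1737, 1463 and 1178 in Col-0, against 405, 606 and 445 in sid2 (log2 fold change -1.58, SE 0.241, limma adjusted p = 0.00662). The germin-like gene GLP9 had 35.04, 62.5 and 68.9 in Col-0, against 7.08, 21.1 and 10.5 in sid2 (log2 fold change -1.89, limma adjusted p = 0.00469). The cytochrome P450 gene CYP81D8 had 30.5, 31.3 and 41.0 in Col-0, against 8.41, 8.95 and 10.5 in sid2 (log2 fold change -1.56, limma adjusted p = 0.00319). All 3 separated the genotypes, and the last 2 were called in every omission of a library. ChiC, a chitinase, PLA2A, a patatin-type lipase that is induced by pathogens, BGLU11, a beta-glucosidase, and GLYI7, a glyoxalase I family gene, had log2 fold changes of -1.08, -1.19, -1.28 and -1.21. Their calls were lost in 10, 8, 8 and 11 of the 12 omissions of a library. AT1G26380, a berberine bridge enzyme-like gene, fell by 1.17 on the log2 scale.

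Among the other lower genes were the receptor-like kinase genes RK3 (log2 fold change -1.19), LECRKA4.2 (-1.14), ARCK1 (-1.26) and AT1G35710 (-1.37), and the glutamate receptor-like channel genes ATGLR1.2 (-1.26) and GLR2.5 (-1.06). ATGLR1.2 had 73.8, 69.9 and 52.6 in Col-0, against 34.1, 18.0 and 24.9 in sid2 (limma adjusted p = 0.0153), and GLR2.5 had 29.7, 24.2 and 25.6 in Col-0, against 11.2, 8.78 and 12.9 in sid2 (limma adjusted p = 0.0331). The calls of RK3, LECRKA4.2, AT1G35710 and GLR2.5 were lost without Col-0 urea library 1, with log2 fold changes between -0.98 and -1.07 there. They also depended on other libraries, being lost in 10, 9, 7 and 10 of the 12 omissions of a library.

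CCD8, a carotenoid cleavage dioxygenase of strigolactone synthesis, had 249, 281 and 147 in Col-0, against 49.4, 75.0 and 69.5 in sid2 (log2 fold change -1.72, SE 0.293, limma adjusted p = 0.0153). The remaining lower genes were the cation/proton exchanger gene CHX17 (log2 fold change -0.95), AT1G13520 (-1.33), AT2G04460 (-1.30) and AT4G01870 (-1.21).

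In 24 further lists with measured members 0 genes were called, against 0.248% of all genes. In most of these lists the median lay close to that of all genes. For the EDS1 node, which works beside SA in immunity, the median of 10 measured genes was -0.27; EDS1 had 204 ± 43.5 in Col-0 and 200.2 ± 22.5 in sid2, and PAD4 had 170.4 ± 34.6 and 187 ± 24.8 (SD, n = 3). UGT76B1, which glucosylates N-hydroxypipecolic acid and SA, had the smallest p of that list (log2 fold change -0.76, limma adjusted p = 0.455). For pattern-triggered immunity the median of 23 genes was -0.08. SOBIR1, a co-receptor kinase, had 360.2, 277 and 297 in Col-0, against 176, 186 and 154 in sid2 (log2 fold change -0.84, SE 0.177, limma adjusted p = 0.0558), and was called with the replicate block (limma adjusted p = 0.0369). FLS2 and EFR, receptors for bacterial flagellin and elongation factor, had log2 fold changes of -0.74 and -0.72 without a call, whereas their co-receptor BAK1 had -0.08.

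For camalexin and indole glucosinolates the median of 11 genes was -0.13. MYB51, an activator of indole glucosinolate synthesis, had 107, 83.2 and 122 in Col-0, against 27.4, 73.9 and 39.2 in sid2 (log2 fold change -1.19, SE 0.256, limma adjusted p = 0.0654). PAD3, which completes camalexin, had -1.004 (limma adjusted p = 0.477) and CYP79B2 had -0.85 (limma adjusted p = 0.164). For jasmonate synthesis and signalling the median of 18 genes was 0.13. AOS, an enzyme of jasmonate synthesis, had 123, 148 and 151 in Col-0, against 236, 224 and 262 in sid2, without overlap (log2 fold change 0.76, SE 0.183, limma adjusted p = 0.117).

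Upstream of and alongside SID2, the genes of chorismate supply had log2 fold changes near 0. The 14 genes of the shikimate route and chorismate use had a median log2 fold change of 0.03, with a range of -0.35 to 0.31. The 5 measured genes of phylloquinone synthesis, which also starts from isochorismate, had a median of 0.16. Nitrogen uptake and assimilation, of interest because the medium held urea, had a median of 0.00 over 21 genes, with NIR1, nitrite reductase, at 307 ± 35.5 in Col-0 and 468 ± 3.68 in sid2 (SD, n = 3, limma adjusted p = 0.455). The 8 commonly used reference genes had a median of -0.01.

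In some lists without a call most members lay on one side of 0, and several of the medians moved with Col-0 urea library 1 or with the scaling. All 24 measured nuclear photosynthesis genes had a log2 fold change above 0, with a median of 0.36, but after quantile normalization 15 of 24 were above 0 with a median of 0.03. The plastocyanin gene PETE2 had 2959, 4689.6 and 6394 in Col-0, against 7926, 7291 and 8049.9 in sid2 (limma adjusted p = 0.455). All 9 measured heat shock genes were above 0 with a median of 0.51, which was 0.17 without Col-0 urea library 1; their summed signal was 581 in that library and 899 to 1005 in the other Col-0 libraries, against 988 to 1057 in sid2. The 4 measured genes of abscisic acid, cold and dehydration had a median of 0.50, and 0.06 without that library. For the 9 measured sulfate genes the median was 0.37, and 0.03 without it. The 9 measured genes of phenylpropanoids and flavonoids had 7 values above 0 and a median of 0.39, which was 0.47 without that library, 0.27 with one total and 0.37 after quantile normalization. Under L-Glu the median of these 9 was -1.03, with 6 called lower, against 6.04% of all genes called lower there. What sets Col-0 urea library 1 apart was not tested.

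**Figure D3:**
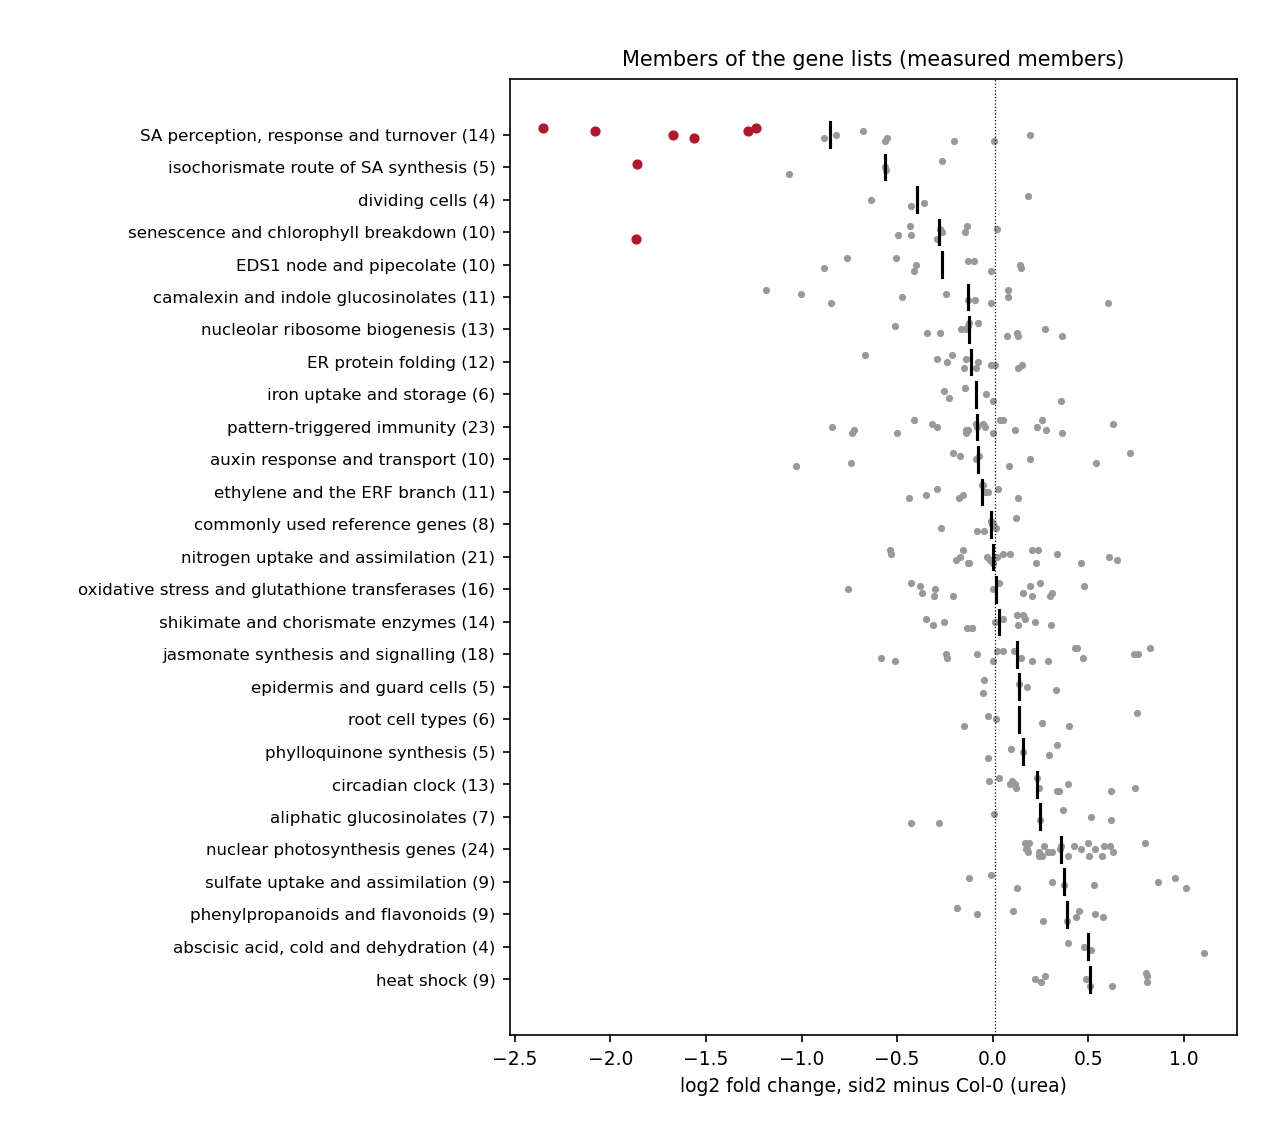
Each point is a measured member of the gene list named at the left, with the number of measured members in brackets, and its log2 fold change, sid2 minus Col-0 under urea, on the horizontal axis. Red points were called, black bars are list medians and the dotted line is the median of all genes, 0.01. All 8 red points lie in the lists for SA perception, response and turnover, for the isochorismate route and for senescence.

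The 10 higher genes held 0 members of the lists. The lists have 297 measured members, against 14897 genes in the table, so 0 of 10 says little. Of these 10, 7 lay in 2 short stretches, 6 on chromosome 3 with uncalled genes between them and 1 on chromosome 5. On chromosome 3 these were BET10, a bromodomain protein gene, TPLATE, which codes for a subunit of a plant endocytic complex, AT3G01800, annotated as a ribosome recycling factor, AT3G01820, AT3G01860 and SOX, the sulfite oxidase gene. TPLATE had 174, 158 and 157 in Col-0, against 383, 358 and 359.7 in sid2 (log2 fold change 1.16, SE 0.184, limma adjusted p = 0.00791). SOX had 305, 368 and 389.5 in Col-0, against 699.7, 828 and 744 in sid2 (log2 fold change 1.09, SE 0.166, limma adjusted p = 0.00662). BET10 had 304, 337 and 259 in Col-0, against 601, 553 and 687 in sid2 (log2 fold change 1.03, SE 0.182, limma adjusted p = 0.0195). Each of these stood close to a doubling, with sid2 libraries that did not overlap those of Col-0. On chromosome 5, 2-Cys Prx B, a plastid peroxiredoxin gene, had 419.6, 533 and 434 in Col-0, against 1029, 915 and 1025 in sid2 (log2 fold change 1.099, SE 0.200, limma adjusted p = 0.0233).

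The position of these genes led to a scan of the whole table, chosen after the values were seen. Of 14784 windows of 8 neighbouring measured genes, 26 had a median log2 fold change of at least 0.7 and 0 had one of -0.7 or less; the medians ran from -0.48 to 1.09. The 26 windows formed 3 stretches. Each end was cut back to a gene with a log2 fold change of at least 0.5. High urea values inside and at the ends, and the drop to the neighbours, thus follow in part from how the stretches were picked. The first, chr3:275333-329387 (TAIR10.1), runs from AT3G01770 to AT3G01980 over 54.1 kb and holds 16 measured genes of 23 annotated protein-coding ones. All 16 had a value above 0, with a median of 1.02 and a range of 0.60 to 1.99, and 6 were called. The measured genes next to it, AT3G01750 and AT3G01990, had -0.34 and 0.26. Of the 10 measured genes on either side 0 were called under urea, against 0.248% of all genes.

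The second stretch, chr5:1917641-1974527, runs from AT5G06280 to AT5G06460 over 56.9 kb with 14 measured genes of 19 annotated. All 14 were above 0, with a median of 0.78, and 1, 2-Cys Prx B, was called; without Col-0 urea library 1 it was 0 (limma adjusted p = 0.0601 for 2-Cys Prx B). The genes next to it, AT5G06270 and AT5G06510, had -0.16 and -0.65. In each library a median over the genes of the stretch, relative to the Col-0 mean, placed sid2 apart: 0.86 to 1.07 against 0.03 to 0.06 in Col-0 for the first stretch, and 0.60 to 0.81 against -0.05 to 0.04 for the second. Without Col-0 urea library 1 the medians of the stretches were 0.99 and 0.70.

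The third stretch, chr5:17951442-17986431, from AT5G44565 to AT5G44585 with 8 measured genes, behaved otherwise. Its median was 0.78 with 0 calls, and 0.25 without Col-0 urea library 1, whose own median was -0.999 against 0.44 and 0.54 in the other Col-0 libraries.

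Because the stretches were chosen on the urea libraries, their values there are a description, and the L-Glu libraries give a reading from samples that were not used. Under L-Glu 1083 genes (7.27%) were called higher in sid2. In the first stretch 16 of 16 genes were above 0 and 9 were called higher, with a median of 0.83. In the second 14 of 14 were above 0 and 8 were called higher, with a median of 0.89. In the third 1 of 8 was above 0, 1 was called lower and the median was -0.43. The first and second stretches were thus higher in sid2 in both sets of libraries and the third was not. DNA copy number was not measured, and the cause was not tested.

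**Figure D4:**
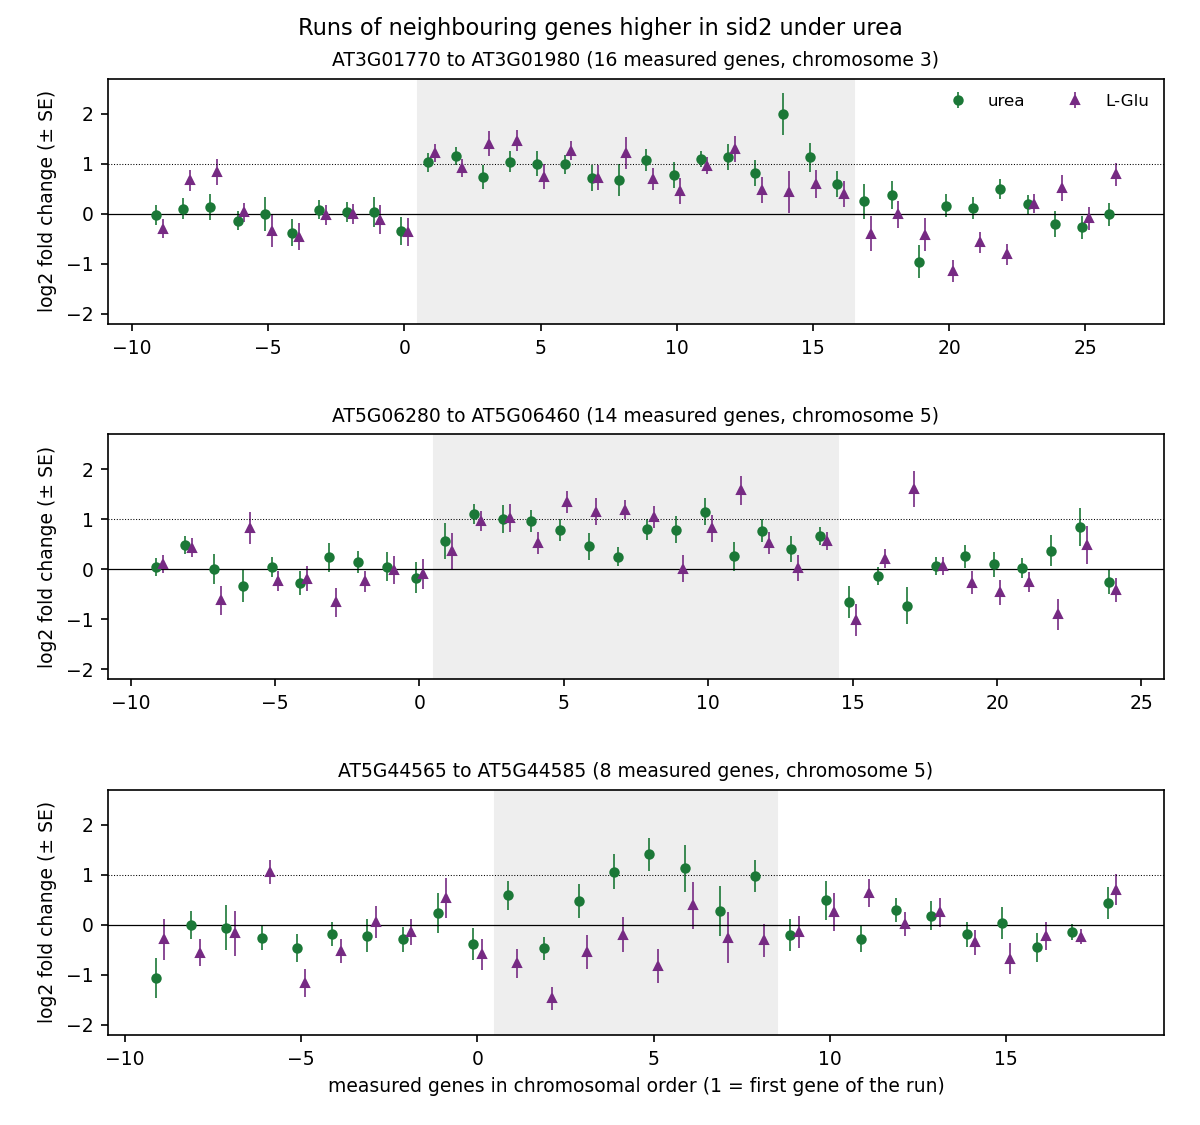
Each panel shows 1 stretch (shaded) with the 10 measured genes on either side, in chromosomal order, and the log2 fold change, sid2 minus Col-0, with its SE on the vertical axis. Green circles are the urea comparison and purple triangles the L-Glu comparison, and the dotted line marks 1. In the upper and middle panels all shaded values of both treatments lie above 0, though FLA17 in the middle panel has only 0.01 under L-Glu. Medians of the 10 genes on each side there run from -0.25 to 0.14 over both treatments. Single genes outside the shading also lie high under L-Glu, such as AT5G06550 at 1.61 in the middle panel. In the lower panel 7 of 8 shaded urea values and 1 of 8 shaded L-Glu values lie above 0.

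The other 3 higher genes lay elsewhere. AT4G22470, of the lipid transfer protein family, had 28.0, 61.2 and 40.0 in Col-0, against 95.8, 138 and 105 in sid2 (log2 fold change 1.37, SE 0.265, limma adjusted p = 0.0359). The tonoplast aquaporin gene TIP2;3 had 103, 112 and 98.1 in Col-0, against 207, 277 and 185 in sid2 (log2 fold change 1.05, limma adjusted p = 0.0448). The wall-associated kinase-like gene WAKL4 had 8.94, 13.1 and 13.0 in Col-0, against 25.9, 23.9 and 26.05 in sid2 (log2 fold change 0.94, limma adjusted p = 0.0233). The sid2 libraries were the higher ones in all 3, and all 3 calls were lost without Col-0 urea library 1. Over the 12 omissions of a library, the calls of AT4G22470, TIP2;3 and WAKL4 were lost in 6, 11 and 4. Without sid2 urea library 1, SOX alone of the 10 higher genes was still called.

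The genotypes were also compared under L-Glu, in 6 libraries that share none with the urea comparison, although both comparisons were fitted in one model. There 1983 genes (13.3%) were called, 900 lower in sid2 (6.04%). Of the 27 genes lower under urea, 9 were called lower under L-Glu as well, 33.3% of the urea list and 1.00% of the L-Glu list. They were WRKY54, WRKY51, UGT74F2, DMR6, PRXCB, BGLU11, AT1G35710, AT4G01870 and GLYI7. Of the 10 higher genes, 7 were called higher under L-Glu, 70% of the urea list and 0.646% of the L-Glu list, and these were the 7 in the stretches on chromosomes 3 and 5. None of the 37 was called in the opposite direction.

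Genes lower in the mutant under urea differed in how they stood under L-Glu. DMR6 had means of 788 ± 34.4 in Col-0 and 344 ± 4.67 in sid2 (SD, n = 3) with L-Glu, and its log2 fold changes were -1.24 with urea and -1.19 with L-Glu. UGT74F2 had -1.28 and -2.05, and WRKY51 had -1.67 and -1.91. SARD1 and WRKY70, with -1.86 and -2.08 under urea, had -0.51 and -0.72 under L-Glu, where neither was called (limma adjusted p = 0.210 and 0.0758). The tests of the difference between treatments gave limma adjusted p-values of 0.0608 for SARD1 and 0.0624 for WRKY70, so these genes were not shown to differ between treatments. Across the table this interaction was called for 291 genes (1.95%), at 191 of them with a higher value under L-Glu (1.28%) and at 100 with a lower one (0.671%). Of the 37 genes 8 were among them, 5 higher and 3 lower. Because the 37 were chosen for large urea effects, smaller effects under L-Glu are favoured by the choice.

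WRKY54 was one of the 8. With L-Glu it had 657, 568 and 953 in Col-0, against 12.4, 10.7 and 8.84 in sid2, so the mutant libraries stayed near the values they had with urea. Its log2 fold change was -5.66 with L-Glu (SE 0.243, limma adjusted p = 5.28e-11), and the interaction was -3.31 (limma adjusted p = 0.000184). SAG13 was another, with 67.6 ± 17.2 in Col-0 and 62.1 ± 8.77 in sid2 (SD, n = 3) under L-Glu, a log2 fold change of -0.09.

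**Figure D5:**
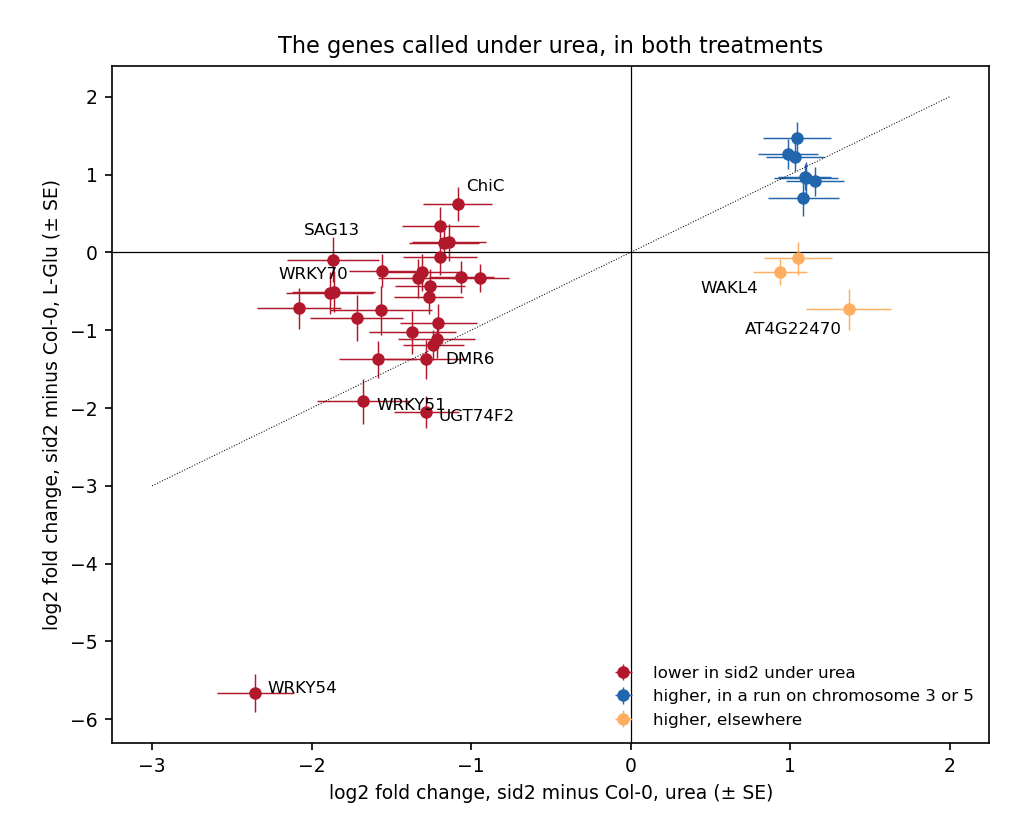
Each point is 1 of the 37 genes called under urea, with its log2 fold change, sid2 minus Col-0, under urea on the horizontal axis and under L-Glu on the vertical axis, and bars of 1 SE. Red points are the 27 lower genes, blue points the 7 higher genes in the stretches on chromosomes 3 and 5, and orange points the other 3, and the dotted line marks equal values. The blue points lie near the line, the orange points lie below 0 under L-Glu, and WRKY54 lies far below the line.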

How the data were processed

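RNA was sequenced from 12 seedling libraries in 4 groups of 3. A normalized signal for 14897 genes was deposited by the authors. Per the submitters' processing notes, edgeR 3.22.3, HTSeq 0.6.0, TopHat and TopHat2 2.1.0 were used with TAIR10, without stated roles. How the deposited signal was normalized, its depth, and whether strand was used in counting are not given in the sources used here. Reads of paralogs or overlapping genes may be shared.

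The deposited values were divided by 3.49, one constant that puts an average library on the CPM scale. Adding 1 scaled unit before log2 shrinks folds of weak genes. No gene fell under a mean of 1 scaled unit. In R 4.3.3, limma 3.58.1 fitted the group means of all 12 libraries with an intensity trend (residual df 8). Tests were two-sided with Benjamini-Hochberg adjustment over all genes at 0.05. The comparisons were sid2 against Col-0 under urea, under L-Glu, and their difference. On simulated data for the urea comparison, with 200 of 14897 genes changed, 97.0% of changes of 2 log2 units, 40.3% of changes of 1 and 1.49% of changes of 0.5 were recovered, with 5 false calls.

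Same-numbered Col-0 and sid2 urea libraries deviated together (r = 0.126, 0.219 and 0.196 across genes). Differently numbered ones had r from -0.127 to -0.048, which deviations from a group mean partly force. Among the labels only the replicate numbers in the titles give the pairing, and the main fit did not use it. Of the identifiers, 14819 matched the TAIR10.1 annotation, which gave symbols, coordinates and promoters. The comparison and the 28 gene lists, with 297 of 380 members measured, were chosen with earlier results of these data known. Named genes were SID2 and its partners, up to 12 called genes with the largest fold at each end among non-overlapping genes that averaged 5 scaled units or more, up to 3 called members of each list, the leading member of each list without a call, and 5 genes on each side of SID2; the other called genes, and list members beside these, were named after their values were seen. Alternatives were other pseudocounts, filters and scalings, the urea libraries alone, a replicate block, a robust prior and the omission of each library.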

Additional observations from a re-analysis of the deposited data

Results flagged for a closer look

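For 8 of the genes called under urea, the genotype effect under L-Glu differed from that under urea by the interaction term of the limma fit (adjusted p below 0.05 over all genes). The values are log2 differences, the effect of sid2 under L-Glu minus that under urea. These genes were chosen for a large urea effect, which the interaction subtracts, so a smaller effect under L-Glu is favoured by the choice. Over all genes the interaction calls ran from 9 to 367 with 1 library left out. The effect was lower under L-Glu for WRKY54, by -3.31 (adjusted p = 0.000184), for AT4G22470, by -2.10 (adjusted p = 0.0140), and for WAKL4, by -1.19 (adjusted p = 0.0231). It was higher under L-Glu for 5 genes, all of them lower in sid2 under urea. These were SAG13, at 1.77 (adjusted p = 0.0357), ChiC, at 1.71 (adjusted p = 0.0143), and RK3, at 1.53 (adjusted p = 0.0322). The others were CYP81D8, at 1.32 (adjusted p = 0.0328), and AT1G26380, at 1.29 (adjusted p = 0.0387). ChiC and RK3 had log2 fold changes of 0.63 and 0.34 under L-Glu, neither called there.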

How the results depend on the processing

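Of the results for 95 single genes under 21 alternative settings, 1706 kept their direction and side of the threshold, 256 lost the threshold, 28 gained it and 5 changed sign. The sign changes were at AT5G44572 (-0.015 without Col-0 urea library 1, with all other libraries or only the urea ones; -0.015 to 0.84 with 1 library left out) and AT5G44582 (-0.48 in both of those settings and -0.09 without sid2 urea library 3; -0.48 to 0.88 with 1 library left out), both in the third stretch and neither called. The 37 calls under urea became 16 with a pseudocount of 10 scaled units, 60 when all libraries were given the same total, 5 with only the 6 urea libraries, and 13 to 37 with 1 library left out. They were 13 without sid2 urea library 1, 16 without library 2 and 21 without library 3. They were 20 without Col-0 urea library 2, 22 without sid2 L-Glu library 1 and 24 without sid2 L-Glu library 2. Of the 37 calls without Col-0 urea library 3, 20 were in the main set. The 27 lower calls became 9, 52 and 4 in the first 3 settings and 10 to 25 with 1 library left out. The 10 higher calls became 1 with only the 6 urea libraries, 16 with the replicate block, 18 in the urea libraries without Col-0 library 1 (a setting added after seeing the data), and 1 to 19 with 1 library left out. Scaling to one total moved the median of all genes from 0.01 to -0.10. The 1983 calls under L-Glu ran from 792 to 2649 with 1 library left out. The 291 interaction calls became 523 with a pseudocount of 10, 153 after quantile normalization, and 9 to 367 with 1 library left out. Neither can be had from the 6 urea libraries. Among genes of the lists and stretches, the replicate block gained SID2, SOBIR1, AT3G01950 and LOG7 and, of the called genes, lost ACD6. Depth is unknown, so weak genes such as WRKY54 in sid2 carry an unknown counting error.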

Other observations

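The organelle genomes were outside the gene lists. Of 59 measured chloroplast genes 0 were called between the genotypes under urea, against 0.248% of all genes. Their median log2 fold change was 0.16, and -0.20 without Col-0 urea library 1. They held 0.598% to 1.34% of the signal in Col-0 libraries and 1.16% to 1.35% in sid2 libraries. Of 10 measured mitochondrial genes 0 were called, with a median of 0.24, and -0.13 without that library. The direction of both sets thus changed with 1 library. In the stretch on chromosome 3, the gene with the highest value, AT3G01950, had 7.94, 56.5 and 54.7 in Col-0, against 149.8, 114 and 135 in sid2. Its log2 fold change was 1.99 with Col-0 urea library 1 (limma adjusted p = 0.0576) and 1.2003 without it (limma adjusted p = 0.0254).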
